A study of Mus musculus with 6 samples.

Results

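A set of 10 marker genes of recruited and lipid-associated macrophages was followed in the liver of mice fed polypropylene microplastic: Cd68, Lyz2, Ccr2, Cx3cr1, Itgam, Itgax, Gpnmb, Trem2, Cd9 and Ly6c2. They were taken by symbol from a table of 56674 gene rows, and all 10 were found there. The 6 samples were livers of male C57BL/6 mice, reared for 71 weeks, of which 3 received normal chow (control) and 3 received chow that contained polypropylene microplastic (PP-MP). No transgene, deletion or other agent is named for either group. The protocol text names a different abbreviation, PS-MP, for every sample, so groups were taken from the titles and treatment labels. The labels do not state that the replicates of a group were separate mice, and p-values here measure only the spread between these samples.

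The liver holds a resident macrophage population, the Kupffer cells, which line the sinusoids and clear particles and microbes from the blood. Monocytes from the circulation, drawn in through the chemokine receptor CCR2 and recognised in mice by surface Ly6C, can mature into further macrophages in an injured or fat-laden liver. Some of these take on a lipid-associated state that is marked by TREM2, GPNMB and CD9. Several of the 10 genes are not restricted to macrophages: Itgam is also a neutrophil gene, Itgax a dendritic cell gene, and Cd9 is found on platelets, endothelium and epithelium.

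Total counts ranged from 68357478 to 112566641 per library, and the share of an 18S ribosomal RNA gene from 0.655% to 11.2%, highest in control 2. The libraries were liver by their markers, with albumin (Alb) at 47022 to 58013 CPM (reads of a gene relative to the library total). Every member passed the filter on low counts, but most were scarce: the 60 values, 1 per member and library, rested on 25 to 15985 reads. The lowest count, 25, was that of Gpnmb in control 3 and of Itgam in PP-MP 3. For Gpnmb it gave 0.239 CPM with an exact 95% Poisson interval of 0.155 to 0.353, which covers counting error only. CPM here are scaled by trimmed-mean (TMM) factors. Tests are the two-sided edgeR quasi-likelihood F test with Benjamini-Hochberg adjustment over all 18284 genes tested, and log2 fold changes are PP-MP over control.

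No member passed the test between the diets, and 4 (Cx3cr1, Itgam, Trem2 and Cd9) changed direction when 1 library, PP-MP 1, was left out. For Itgam this holds for its own counts, without those of an overlapping gene model described below. The library PP-MP 1 held the highest value of the 6 for 8 of the 10 members (21.9% of all genes). The library PP-MP 3 lay above every control for 0 of them (27.5% of all genes). The edgeR adjusted p of the members ran from 0.31 for Lyz2 to 0.90 for Cd9. Of all genes tested 0.0109% passed, 0.00547% in each direction. At an unadjusted p under 0.05 there was 1 member, Lyz2, which was higher, against 8.05% of all genes higher and 5.81% lower. Limma-voom called 0 members, and among all genes 0 higher and 1 lower. DESeq2 called 0 members too, against 2.38% of all genes higher and 1.87% lower. For 0 members did the 2 groups stand apart without overlap, although 12.2% of all genes had each PP-MP library above all controls and 9.79% had each below them. In liver RNA, more cells of a type and more RNA per cell cannot be told apart.

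**Figure D1:**
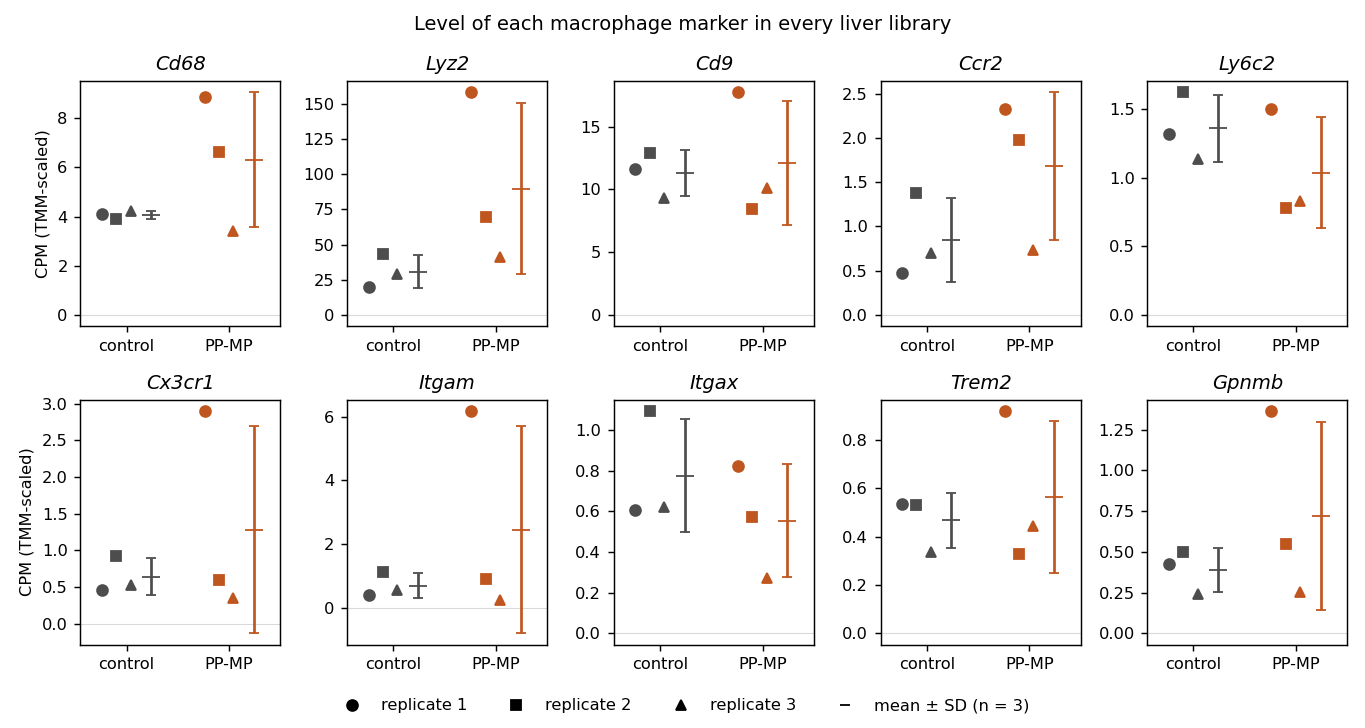
Level of each of the 10 markers in the 6 liver libraries, in TMM-scaled CPM on a linear axis of its own for each gene; symbols are replicates, and the bar is mean ± SD (n = 3 per group). PP-MP 1 (orange circle) is the highest library for 8 genes, and the orange triangle, PP-MP 3, lies above the controls for none.

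Cd68 and Lyz2 are general macrophage genes. Cd68 encodes a heavily glycosylated membrane protein of late endosomes and lysosomes. It was at 4.09, 3.91 and 4.23 CPM in control 1, 2 and 3 and at 8.89, 6.64 and 3.41 CPM in PP-MP 1, 2 and 3. The control libraries were close together, 2 PP-MP libraries lay above all of them and PP-MP 3 lay below. Cd68 had a log2 fold change of 0.63 (its SE 0.34, edgeR adjusted p = 0.46), with a 95% interval of −0.19 to 1.45. Lyz2 encodes lysozyme, the bacterial wall-cleaving enzyme of macrophages and neutrophils. Its level was 19.8, 43.1 and 29.4 CPM in control and 158, 69.8 and 41.2 CPM under PP-MP. The groups overlapped only through control 2, which exceeded PP-MP 3. The log2 fold change of Lyz2 was 1.55 (SE 0.53), a fitted 2.92-fold difference with a 95% interval of 1.22 to 7.02 that carries no adjustment for the number of genes (edgeR unadjusted p = 0.024, adjusted p = 0.31). DESeq2 gave Lyz2 an adjusted p of 0.062.

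Without PP-MP 1 the log2 fold change of Lyz2 was 0.85 (95% interval −0.09 to 1.80, edgeR adjusted p = 0.55), and that of Cd68 was 0.30. Without PP-MP 3, Cd68 was at 0.93 and Lyz2 at 1.89, both with an edgeR adjusted p of 0.32. Part of the Lyz2 sequence is shared with Lyz1, its tandem copy: 32.8% of the 31-base words in the Lyz2 transcript also occur in Lyz1. Lyz1 itself carried 21, 101 and 35 reads in control and 260, 64 and 46 under PP-MP, against 1435 to 15985 reads of Lyz2. With the counts of both genes added, the log2 fold change was 1.53 (edgeR adjusted p = 0.31).

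Ccr2, Ly6c2 and Cx3cr1 mark monocytes and the macrophages that descend from them. CCR2 is the receptor for the chemokine CCL2 and serves the exit of monocytes from bone marrow. Ccr2 was at 0.468, 1.38 and 0.698 CPM in control and at 2.33, 1.98 and 0.735 CPM under PP-MP. PP-MP 1 and PP-MP 2 lay above every control, and PP-MP 3 lay within the control range. Fitted over all libraries, Ccr2 had a log2 fold change of 0.99, with an SE of 0.56 (edgeR adjusted p = 0.47). Ccr2 rested on few reads, 34 to 83 in the controls and 76 to 235 under PP-MP. With 1 library left out, the log2 fold change of Ccr2 ran from 0.68 without PP-MP 1 (edgeR adjusted p = 0.78) to 1.54 without control 2, its highest control (edgeR adjusted p = 0.23).

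Ly6c2 encodes the Ly6C antigen of classical inflammatory monocytes and did not share the high value in PP-MP 1. It was at 1.32, 1.63 and 1.14 CPM in control and at 1.51, 0.779 and 0.831 CPM under PP-MP. PP-MP 1 lay within the control range, and PP-MP 2 and PP-MP 3 lay below every control. For Ly6c2 the log2 fold change was −0.39 (SE 0.35, edgeR adjusted p = 0.64), and −0.75 (95% interval −1.51 to 0.0037) without PP-MP 1, with an edgeR adjusted p of 0.52. Its near-identical neighbour Ly6c1, an endothelial gene, holds 21.4% of its 31-base words and carried 13 to 31 reads per library, so the split of reads between the pair is uncertain. With Ly6c1 added, the log2 fold change was −0.44.

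CX3CR1, the fractalkine receptor, marks patrolling monocytes and several tissue macrophages. Cx3cr1 was at 0.468, 0.929 and 0.535 CPM in control and at 2.90, 0.593 and 0.348 CPM under PP-MP. PP-MP 1 was 3.13 times the highest control, PP-MP 2 lay within the control range and PP-MP 3 below it. The fitted difference on the log2 scale, 0.997 (SE 0.81, edgeR adjusted p = 0.61), had a 95% interval from −0.94 to 2.93, and it turned to −0.45 when PP-MP 1 was left out (edgeR adjusted p = 0.82).

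**Figure D2:**
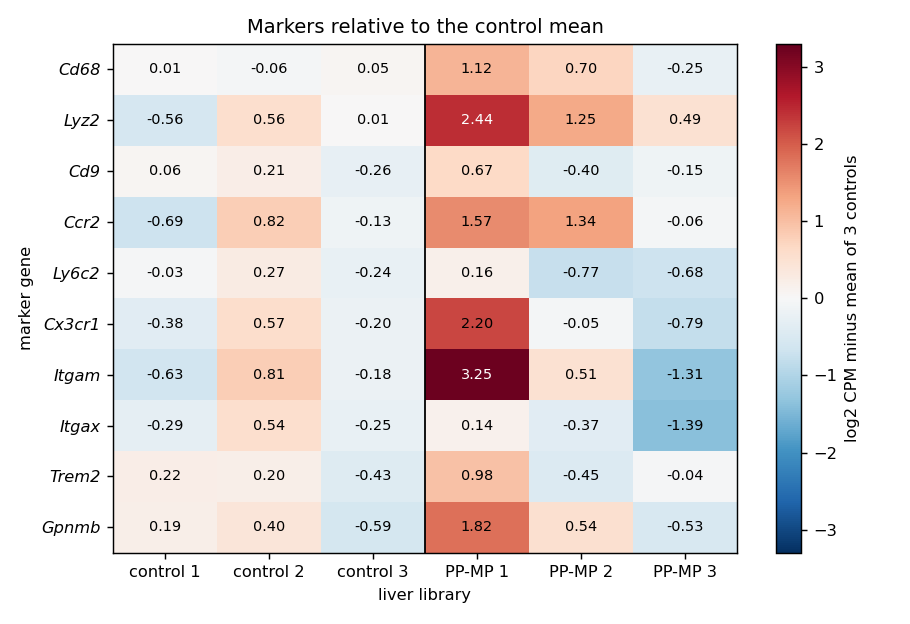
Log2 CPM of each marker (rows) in each library (columns) minus the mean of the 3 controls, with a prior count of 2; red is above and blue below the control mean. PP-MP 1 ranges from 0.14 (Itgax) to 3.25 (Itgam), while PP-MP 3 is below 0 for every marker except Lyz2 (0.49).

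Itgam and Itgax encode the integrin alpha chains CD11b and CD11c, which pair with the beta chain Itgb2 to form complement receptors 3 and 4. Itgam had the widest range of the members. It was at 0.400, 1.13 and 0.555 CPM in control and at 6.19, 0.911 and 0.242 CPM under PP-MP. PP-MP 1 was 5.49 times the highest control and PP-MP 3 was the lowest library of all, a 25.6-fold span within 1 diet against 2.82-fold within the controls. For Itgam the log2 fold change was 1.83 (SE 1.11, edgeR adjusted p = 0.49), with a 95% interval from −0.83 to 4.48, and it turned to −0.26 without PP-MP 1 (edgeR adjusted p = 0.94).

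In GENCODE M21 a read-through gene model, Gm49368, covers 68.7% of the exonic bases of Itgam on the same strand. Its counts were 6, 0 and 42 in control and 0, 65 and 35 under PP-MP, so the division of reads between both models is uncertain. The sum of both models was 35, 68 and 100 counts in control and 625, 148 and 60 under PP-MP. PP-MP 1 was again the highest, PP-MP 2 lay above every control and PP-MP 3 within the control range. On Itgam alone, PP-MP 2 lay within the control range and PP-MP 3 below it. On that sum the log2 fold change was 1.71 (95% interval −0.31 to 3.73, edgeR adjusted p = 0.42). The sum was not fitted without PP-MP 1, so the turn to a negative value holds for the counts of Itgam alone.

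Itgax, an integrin of dendritic cells and of lipid-laden macrophages, was at 0.606, 1.09 and 0.621 CPM in control and at 0.822, 0.571 and 0.271 CPM under PP-MP. PP-MP 1 lay within the control range and the other PP-MP libraries below it. Itgax thus had a negative log2 fold change, −0.48 (SE 0.49, edgeR adjusted p = 0.68), and −0.88 without PP-MP 1. Itgb2, the shared beta chain, was at 5.39, 5.21 and 5.17 CPM in control and at 18.5, 9.60 and 4.13 CPM under PP-MP (log2 fold change 1.03, edgeR adjusted p = 0.41).

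The 250 bases before the RefSeq start are shown for the 4 members whose promoter window held GAGGAA, the core of the site bound by PU.1, the lineage factor of macrophages. They include Itgam, which differed most between libraries, and Ly6c2, which did not follow it. The search covered 300 bases (250 before and 50 after the start) on both strands, where GAGGAA reads TTCCTC on the other strand, and capitals mark each match within the 250 bases printed. The windows are in GRCm38.p6 at chr7:128062390-128062639 (Itgam, plus strand), chr11:69666171-69666420 (Cd68, minus strand), chr15:75111938-75112187 (Ly6c2, minus strand, 1 of the 2 starts listed) and chr17:48346151-48346400 (Trem2, plus strand).
Itgam: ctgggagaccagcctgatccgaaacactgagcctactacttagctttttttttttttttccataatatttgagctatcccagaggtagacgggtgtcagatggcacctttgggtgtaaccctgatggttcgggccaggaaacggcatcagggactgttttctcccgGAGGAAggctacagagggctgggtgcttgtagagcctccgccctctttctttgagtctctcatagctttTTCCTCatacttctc
Cd68: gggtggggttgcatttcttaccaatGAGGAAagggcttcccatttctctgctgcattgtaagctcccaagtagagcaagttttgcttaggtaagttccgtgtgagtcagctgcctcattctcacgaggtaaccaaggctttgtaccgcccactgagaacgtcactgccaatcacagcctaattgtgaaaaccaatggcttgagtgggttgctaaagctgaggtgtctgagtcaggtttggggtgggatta
Ly6c2: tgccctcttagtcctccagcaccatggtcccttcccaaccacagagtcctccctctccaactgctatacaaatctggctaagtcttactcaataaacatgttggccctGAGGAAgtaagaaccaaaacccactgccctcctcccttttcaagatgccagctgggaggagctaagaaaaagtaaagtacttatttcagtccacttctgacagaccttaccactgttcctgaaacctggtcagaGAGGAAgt
Trem2: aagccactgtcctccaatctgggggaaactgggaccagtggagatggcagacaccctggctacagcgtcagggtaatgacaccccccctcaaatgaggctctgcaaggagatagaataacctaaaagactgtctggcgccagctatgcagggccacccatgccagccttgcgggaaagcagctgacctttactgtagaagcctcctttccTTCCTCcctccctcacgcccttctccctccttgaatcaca
Among the printed matches, the last of Itgam lies 15 bases before the start, that of Trem2 40 bases and that of Cd68 225 bases before it. For Cd68 and Ly6c2 the bases just after the RefSeq start were not found in a GENCODE transcript of the gene. Positions relative to the start are therefore less certain for these genes. Itgam and Cd68 each had a further match beyond the printed bases, 32 and 29 bases after the start. GAGGAA was present in 28.3% of all 32851 windows of that length. CACGTG, bound by the MiT/TFE factors of lysosomal genes, and the TATA box TATAAA were in the windows of 0 members, and in 7.15% and 13.6% of all windows. A match is a sequence description and not a measured binding site.

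Trem2, Gpnmb and Cd9 mark the lipid-associated state. TREM2 is a lipid-sensing receptor that signals through the adaptor TYROBP. Trem2 was at 0.537, 0.531 and 0.335 CPM in control and at 0.921, 0.329 and 0.445 CPM under PP-MP. PP-MP 1 lay above every control, PP-MP 2 just below and PP-MP 3 within the control range. The log2 fold change of Trem2 was 0.28 (SE 0.48, edgeR adjusted p = 0.81), and −0.26 without PP-MP 1 (edgeR adjusted p = 0.89). Its adaptor Tyrobp was at 4.13, 4.78 and 6.19 CPM in control and at 16.2, 8.0 and 5.43 CPM under PP-MP (log2 fold change 0.97, SE 0.41, edgeR adjusted p = 0.36). Here too PP-MP 3 lay within the control range.

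GPNMB is a transmembrane glycoprotein of lysosome-rich, lipid-laden macrophages. Gpnmb was at 0.427, 0.498 and 0.239 CPM in control and at 1.37, 0.549 and 0.251 CPM under PP-MP. PP-MP 1 stood 2.75 times above the highest control, PP-MP 2 just above it, and PP-MP 3 within the control range. Gpnmb gave a log2 fold change of 0.91 (with SE 0.66, edgeR adjusted p = 0.56), and 0.05 without PP-MP 1. CD9 is a tetraspanin of many cell types. Cd9 was at 11.6, 12.9 and 9.29 CPM in control and at 17.7, 8.43 and 10.1 CPM under PP-MP, where PP-MP 1 was above, PP-MP 2 below and PP-MP 3 within the control range. The log2 fold change was 0.10 (SE 0.30, edgeR adjusted p = 0.90), its 95% interval ran from −0.62 to 0.82, and without PP-MP 1 the value turned to −0.28 (edgeR adjusted p = 0.74).

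**Figure D3:**
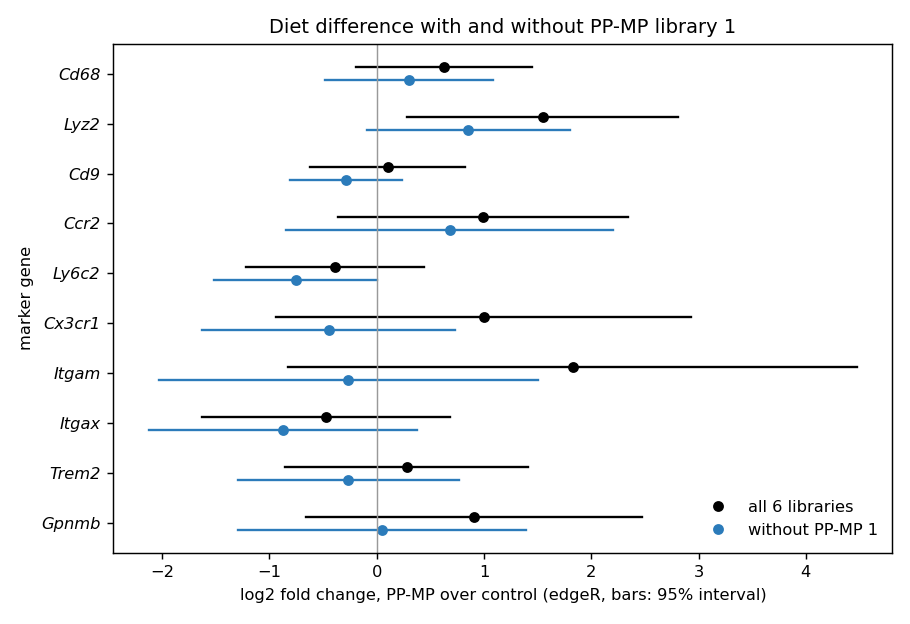
Log2 fold change of each marker, PP-MP over control, from edgeR with all 6 libraries (black) and without PP-MP 1 (blue); bars are 95% intervals. Only the black interval of Lyz2, 0.28 to 2.81, lies to 1 side of 0, and Cx3cr1, Itgam, Trem2 and Cd9 change sign without PP-MP 1. Itgam is shown on its own counts, without Gm49368.

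Read together, 8 of the 10 members had a fitted log2 fold change above 0, against 52.6% of all genes, and their median was 0.77, against 0.03 over all genes tested. A fitted difference of at least 2-fold higher was seen for 2 members, Lyz2 and Itgam, against 10.4% of all genes. Without PP-MP 1 the median was −0.26, with 4 members above 0. By library, 8 members were above every control in PP-MP 1 (32.9% of all genes), 4 in PP-MP 2 (27.8%) and 0 in PP-MP 3 (27.5%). Itgam is counted here on its own reads, without Gm49368. At least 2-fold above the control mean were 6 members in PP-MP 1 (14% of all genes), 2 in PP-MP 2 (9.66%), namely Lyz2 and Ccr2, and 0 in PP-MP 3 (8.92%). Relative to its control mean, the 8.92-fold level of Itgam, the 5.15-fold level of Lyz2 and the 4.51-fold level of Cx3cr1 led in PP-MP 1, and Itgax (1.06-fold) and Ly6c2 (1.11-fold) were lowest.

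Levels of different genes were compared per kilobase of exonic length (GENCODE M21). In control Lyz2 led, at 23.4 ± 8.89 CPM per kilobase (SD, n = 3), followed by Cd9 at 5.51 ± 0.895, Cd68 at 3.24 ± 0.124 and Ly6c2 at 0.497 ± 0.0899. Each of these stood apart from its neighbour in every control library. Itgax, Cx3cr1, Itgam, Ccr2, Trem2 and Gpnmb followed, from 0.161 ± 0.0578 down to 0.0596 ± 0.0205 CPM per kilobase, and neighbours in that order overlapped. The lipid-associated markers Trem2 and Gpnmb were thus the 2 lowest of the 10, while Cd9 was the second highest.

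Genes whose profile over the 6 libraries was nearest to a member, by Euclidean distance of centred log2 CPM among 11602 candidates, are given as a description. Nearest to Cd68 were Lgals3 (distance 0.15), Folr2 (0.22) and Sdc3 (0.23). Lyz2 had Ly86 (0.40), Msr1 (0.46) and Cd55 (0.49), and Gpnmb had Prkcb (0.34), Csf2rb (0.37) and Nckap1l (0.42). Near Ccr2 lay Mgat4a (0.46), Aebp1 (0.47) and Fam111a (0.49), and near Itgax lay Ccdc88c (0.23), Napsa (0.34) and Glipr2 (0.38). The nearest profiles to Trem2 were those of Arl4d (0.22), the complement gene C6 (0.27) and a gene listed by identifier alone, ENSMUSG00000117226 (0.33). Those to Cd9 were Mlph (0.24), Ltbp1 (0.26) and Il22ra1 (0.27), and those to Ly6c2 were Tacc2 (0.26), Cyfip2 (0.29) and the mitochondrial transfer RNA mt-Tm (0.30). Cx3cr1 and Itgam had 1 near profile each, Mpeg1 (0.49) and Cpe (0.59). Their next were Adgrd1 (0.79) and Capn8 (0.80) for Cx3cr1, and Gpc3 and Adamdec1 (both 1.36) for Itgam. Of the 10 members, Itgam was thus the farthest from its nearest gene, and Cd68 the closest. Among pairs of members, Trem2 and Cd9 were closest (0.37), and Itgam and Ly6c2 farthest apart (3.15).

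Other monocyte genes had a list median of 1.53, 0.30 and −0.37 in PP-MP 1, 2 and 3, relative to the control mean on the log2 scale. Of 16 listed, all were tested and 12 had a fitted value above 0 (52.6% of all genes). The median log2 fold change was 0.63, and 0 passed edgeR over all genes. An unadjusted p under 0.05 was reached by 3, all higher (8.05% of all genes): Chil3, a chitinase-like protein, Cd300e, a receptor of non-classical monocytes, and Treml4. Chil3 was at 0.138, 0.182 and 0.134 CPM in control and at 2.22, 0.593 and 0.319 CPM under PP-MP (log2 fold change 2.79, SE 0.78, edgeR adjusted p = 0.25). Cd300e was at 0.372, 0.531 and 0.956 CPM in control and at 4.59, 2.46 and 1.06 CPM under PP-MP (log2 fold change 2.11, SE 0.61, edgeR adjusted p = 0.25). For both genes the lowest PP-MP library lay above the highest control, which held for 0 members and for 12.2% of all genes. They were the 2 such genes among the 16 listed. DESeq2 called both (adjusted p = 0.017 and 0.023), against 2.38% of all genes higher.

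Companions of the lipid-associated state had fitted values in both directions. Of 20 listed, 7 had a fitted value above 0 (52.6% of all genes) and 13 below, with a median log2 fold change of −0.21. With edgeR 0 passed over all genes, while DESeq2 called 1, Lgals1. Lipa, Lgals1, Anxa5 and Apoe had an unadjusted p under 0.05 (5.81% of all genes in that direction) and showed no overlap, with all PP-MP libraries below all controls (9.79% of all genes). Mmp14, a membrane-bound metalloproteinase named here after its values were seen, had no overlap in the other direction (12.2% of all genes), at 38.8, 38.6 and 27.0 CPM in control and at 45.5, 42.4 and 42.9 CPM under PP-MP (log2 fold change 0.33, edgeR adjusted p = 0.45). Lgals1, encoding galectin-1, was at 96.1, 50.9 and 133 CPM in control and at 9.34, 46.3 and 15.3 CPM under PP-MP (log2 fold change −1.98, SE 0.65, edgeR adjusted p = 0.30, DESeq2 adjusted p = 0.027). Apoe is also made in bulk by hepatocytes, and was at 12120 to 27370 CPM. Lipa was at 180 to 343 CPM and Anxa5 at 35.4 to 91.9 CPM, against 3.41 to 8.89 CPM for Cd68. Which cells the reads of this list came from was not tested, so its median does not describe macrophages alone. Spp1, osteopontin, which bile duct cells make as well, was at 7.51, 18.6 and 10.1 CPM in control and at 9.48, 12.8 and 8.75 CPM under PP-MP (log2 fold change −0.22, edgeR adjusted p = 0.80).

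Among ligands and growth factors, Ccl2, the ligand of CCR2, was at 0.703, 0.647 and 0.545 CPM in control and at 3.04, 1.01 and 0.561 CPM under PP-MP (log2 fold change 1.28, SE 0.62, edgeR adjusted p = 0.42). Cx3cl1, the ligand of CX3CR1, was at 0.882, 0.531 and 0.746 CPM in control and at 0.703, 0.527 and 0.367 CPM under PP-MP (log2 fold change −0.44, edgeR adjusted p = 0.62). PP-MP 1 was thus the highest library for the former and within the control range for the latter. Of 18 tested genes of this list, 15 had a fitted value above 0 (52.6% of all genes). The median log2 fold change was 0.60, and 0 passed edgeR. An unadjusted p under 0.05 was reached by 1, the tetraspanin Cd81, which was lower, and DESeq2 called 0.

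**Figure D4:**
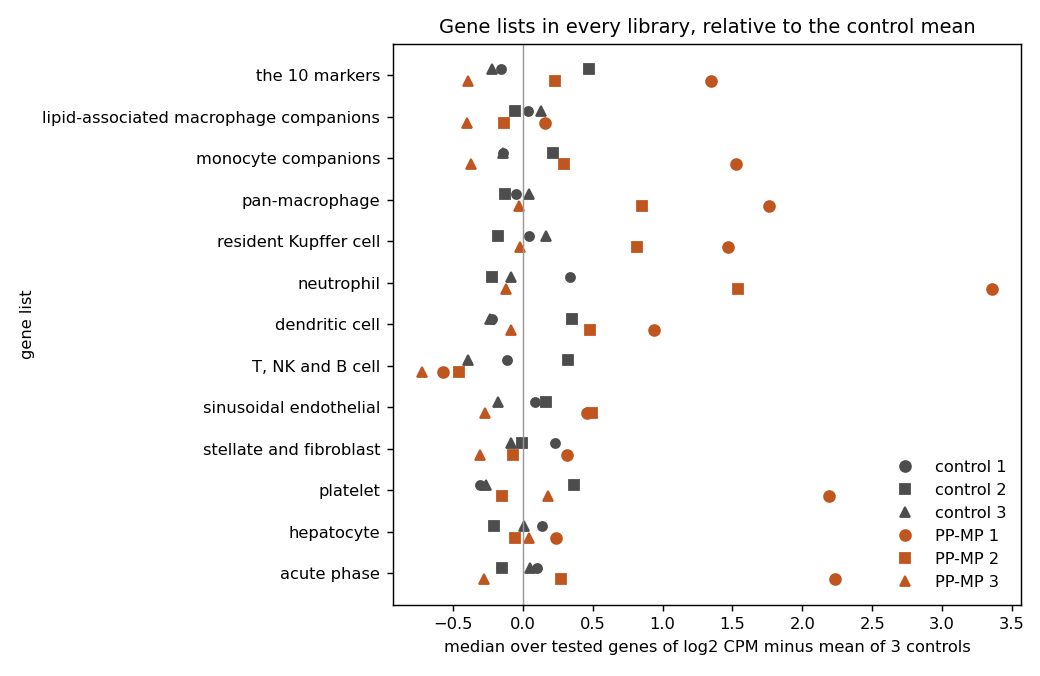
Median over the tested genes of each list of log2 CPM minus the control mean, for the 3 control (grey) and 3 PP-MP (orange) libraries. The neutrophil list in PP-MP 1 lies farthest to the right (3.36), and the 10 markers run from 1.35 in PP-MP 1 to −0.39 in PP-MP 3.

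General macrophage and Kupffer cell genes were also highest in PP-MP 1 by list median. Of 12 general macrophage genes all had a fitted value above 0 (median log2 fold change 0.92). So had 12 of 14 Kupffer cell genes (0.85), against 52.6% of all genes, and 0 of either list passed edgeR. Csf1r, a general macrophage gene here, is also counted with the ligands and growth factors. Lyz1, on the same list, shares sequence with the member Lyz2, so the lists are not independent. At an unadjusted p under 0.05 there were 4 general macrophage genes, all higher, and, of the Kupffer genes, 4 higher and 1 (Id3) lower. Of all genes, 8.05% were higher and 5.81% lower at that threshold. DESeq2 called 2 of each list, all higher (2.38% of all genes). The list median was 1.76, 0.85 and −0.03 in PP-MP 1, 2 and 3 for general macrophage genes, and 1.47, 0.81 and −0.02 for Kupffer genes. For the 10 members it was 1.35, 0.23 and −0.39, always relative to the control mean on the log2 scale. Clec4f, a Kupffer cell lectin, was at 34.3, 25.2 and 32.9 CPM in control and at 53.1, 48.4 and 27.7 CPM under PP-MP. Timd4, a receptor of long-lived resident macrophages, was at 2.31, 2.47 and 1.02 CPM in control and at 17.8, 9.31 and 3.41 CPM under PP-MP, with no overlap (log2 fold change 2.40, SE 0.64, edgeR adjusted p = 0.24, DESeq2 adjusted p = 0.0041). Marco, a scavenger receptor, also showed no overlap (12.2% of all genes in that direction), at 3.39, 3.53 and 1.56 CPM in control against 138, 66.6 and 24.2 CPM under PP-MP. Its log2 fold change was 4.76 (SE 0.72, edgeR adjusted p = 0.18, DESeq2 adjusted p = 2.96e-12).

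Neutrophil genes were highest in PP-MP 1 as well, and neutrophils are known to express Itgam and Lyz2. Of 14 listed, 8 were tested and 8 had a fitted value above 0 (median log2 fold change 2.34), against 52.6% of all genes. With edgeR 0 passed. An unadjusted p below 0.05 was reached by 5, all higher (8.05% of all genes). DESeq2 called S100a8 (2.38% of all genes higher) and gave no adjusted p for S100a9 and Lcn2. Without Lcn2, which hepatocytes make in the acute phase response, the list summed to 2.14 to 2.98 CPM in control and to 30.6, 6.43 and 3.70 CPM in PP-MP 1, 2 and 3. The granule genes Camp and Mpo, named like the next 5 genes after their values were seen, had 0 reads in every control. Under PP-MP 1, 2 and 3, Camp had 58, 0 and 0 reads and Mpo had 101, 10 and 0. Mmp8 and Ly6g also had 0 reads in every control, while Ngp and Ltf had 9 and 10 reads in control 2. Elane had 22, 13 and 20 reads in control and 65, 22 and 0 under PP-MP. Acute phase genes summed to 8581 to 10482 CPM in control and to 30524, 10481 and 8365 CPM in PP-MP 1, 2 and 3. Of these, Saa1 was at 6.29 to 8.51 CPM in control and at 1700, 20.6 and 5.25 CPM under PP-MP. Saa2 was at 5.18 to 11.8 CPM in control and at 3135, 21.8 and 4.28 CPM under PP-MP. Lcn2 was at 2.21 to 6.08 CPM in control and at 652, 14.8 and 2.10 CPM under PP-MP. Every acute phase gene listed lay above all controls in PP-MP 1 (32.9% of all genes), 6 did in PP-MP 2 (27.8%) and 1 in PP-MP 3 (27.5%). The acute phase list held 0 genes that passed edgeR. Platelet genes summed to 4.20 to 5.59 CPM in control and to 11.05 CPM in PP-MP 1, against 4.30 and 5.28 CPM in PP-MP 2 and 3. Of tested genes, fitted values above 0 were found for 4 of 7 in dendritic cells, 7 of 10 in sinusoidal endothelium, 4 of 10 in stellate cells, 2 of 5 in cholangiocytes, 5 of 5 in platelets and 5 of 8 in hepatocytes, and 0 passed edgeR. Over all genes the share above 0 was 52.6%. Among these lists Apoa1, a hepatocyte gene, alone had an unadjusted p below 0.05, and DESeq2 called it as well (higher). The part of neutrophils, platelets or the acute phase in the values of the members was not tested.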

How the data were processed

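RNA of 6 livers was sequenced after poly(A) selection with a directional library kit, per the labels. The deposited values are raw read counts per gene; per the submitters' processing notes the authors used bcl2fastq and GRCm39. Which aligner, counter, strand setting and annotation they used is not given in the sources used here. All 6 per-sample files repeat the columns of the table of all samples. Counts were filtered with filterByExpr (18284 genes kept), scaled with TMM factors and tested with the robust quasi-likelihood test of edgeR 4.0.16 (R 4.3.3), unpaired, with a threshold of 0.05. DESeq2 1.42.0 and limma 3.58.1 (voom) were alternatives. The procedure was tested on simulated data. Gene models, lengths and shared 31-base words came from GENCODE M21 (GRCm38), promoters from RefSeq (GRCm38.p6, all 10 members found by symbol), so no coordinates of the deposited build are given. Libraries of one group were not duplicates of each other (chi-square divided by its degrees of freedom, 154 to 928). The members and lists were chosen with earlier results of these data known. All members are named. Companions named are Ly6c1, Lyz1, Tyrobp, Itgb2, Ccl2, Cx3cl1, Spp1, Clec4f, Timd4 and Marco, and at most 4 genes per list by smallest p, plus the 3 nearest profiles per member (mean CPM of at least 1, no predicted genes).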

Additional observations from a re-analysis of the deposited data

How the results depend on the processing

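Under all 17 alternatives 0 members were called in either direction. This covers other scaling, filters, tests, a threshold of 0.1, the replicate block, each library left out, and 2 alternatives chosen after seeing the data: control 2 and PP-MP 1 left out together, and close gene copies added. Apart from the DESeq2 test and the run without control 2 alone, each alternative called few or no genes at all. A member had little room to be called there. Cd68, Lyz2, Ccr2, Gpnmb, Itgax and Ly6c2 kept their direction wherever they were fitted. With a filter at a mean CPM of 1, Cx3cr1, Itgax, Gpnmb and Trem2 were not fitted. Without PP-MP 1 the log2 fold change reversed for Cx3cr1 (−0.45), Itgam (−0.26), Trem2 (−0.26) and Cd9 (−0.28), and the members' median was −0.26, against up to 1.12 without PP-MP 3. The Itgam value there is for its own counts, and its sum with Gm49368 was not fitted without PP-MP 1. The highest values with 1 library left out were 1.45 for Cx3cr1, 2.40 for Itgam, 0.55 for Trem2 and 0.30 for Cd9. Without control 2 and PP-MP 1, Cx3cr1 (−0.10), Trem2 (−0.16) and Cd9 (−0.17) reversed. The cause was not tested. Among all genes, calls were 1 higher and 1 lower. They were 436 and 341 with the DESeq2 test, 0 higher with limma-voom, 0 lower with library totals, and 0 to 34 higher and 0 to 58 lower with 1 library left out (34 and 58 without control 2). With library totals the median of all genes moved from 0.03 to 0.26 and that of the members from 0.77 to 1.02. Same-numbered libraries gave no sign of pairing (correlation of deviations −0.066, −0.087 and 0.047). The replicate block gave 0 calls higher and 0 lower among all genes and a members' median of 0.46. Ccr2, Cx3cr1, Itgam, Itgax, Gpnmb and Trem2 had 25 to 83 reads per control library, so counting error adds to their spread. Lyz2, with 1435 to 15985 reads, still had an SE of 0.53, against 0.56 for Ccr2 and 0.48 for Trem2. How much of the spread is due to depth was not tested.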

Other observations

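Lymphocyte genes mostly had fitted values below 0. Of 12 genes of T, NK and B cells 11 were tested. A fitted value above 0 was found for 1 (52.6% of all genes) and below 0 for 10. The median log2 fold change was −0.66, and 0 passed edgeR. An unadjusted p under 0.05 was reached by 2, both lower (5.81% of all genes), and DESeq2 called 0. Relative to the control mean on the log2 scale, the list median was −0.57, −0.46 and −0.72 in PP-MP 1, 2 and 3, against 1.35, 0.23 and −0.39 for the 10 macrophage markers, and the difference between both lists was not tested. Cd3e, a chain of the T cell receptor complex, was at 0.661, 1.09 and 1.19 CPM in control and at 0.634, 0.362 and 0.445 CPM under PP-MP (log2 fold change −1.03, SE 0.37, edgeR adjusted p = 0.32). Cd79a, a chain of the B cell receptor, was at 4.15, 4.46 and 2.43 CPM in control and at 1.98, 2.58 and 1.37 CPM under PP-MP (log2 fold change −0.89, SE 0.34, edgeR adjusted p = 0.34). PP-MP 1, the highest library for 8 of the 10 macrophage markers, was below every control for both genes.

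The chemokine genes Ccl7, Ccl8 and Ccl12, named after their values were seen, did not pass the filter on low counts. Ccl12 had 5 reads in PP-MP 1 and 0 in every other library, and Ccl7 had 15, 8 and 16 reads in PP-MP 1, 2 and 3 against 0, 0 and 6 in control. Ccl8 had 36 reads in PP-MP 1 and 32 in control 2, and 0 in the other libraries. Each PP-MP library thus had more Ccl7 reads than each control, in counts not scaled by library. Of all genes tested, 12.2% had each PP-MP library above all controls in CPM. These 3 chemokine genes were not tested between the diets.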
